A study of Arabidopsis thaliana with 48 samples.

Results

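By limits on group means, 14 ATH1 probe sets changed little at 45 min in any light treatment. At 4 h they stood higher in continuous far-red, blue, white or red light than in darkness. Their rise over darkness was at most small 4 h after a short red or UV-A pulse, under a set limit. They were chosen from 22746 probe sets (without 64 controls) by a measure called D, the log2 of the light group's mean signal plus 16 over the mean signal plus 16 of the dark group of the same harvest. A member had to have a mean signal of at least 50 in some group, an absolute D under 0.5 in all 7 light treatments at 45 min, a D of at least 0.8 in the 4 continuous lights at 4 h, and a D under 0.4 at 4 h after the red pulse and after the UV-A pulse. Of the 22746 probe sets, 11838 reached the mean signal, and 10382 of these were within the limit at 45 min. Of these, 222 were up in the 4 continuous lights, and 14 of the 222 were under the limit after both pulses. The rule also leaves out CHIL, MSRB6, SBPASE and UGT78D1, but none of these 4 met its other conditions.

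Each array held total RNA, mostly of hypocotyl and cotyledons, from seedlings of the Arabidopsis thaliana accession Col-0, in 16 groups of 3 arrays: 7 light treatments and darkness, each harvested at 45 min and at 4 h. Continuous far-red (715 nm), blue (453 nm), white and red light (650 nm) were each given at 10 µmol per m2 and s. Pulses were followed by darkness until harvest: 5 min of UV-A/B light (7 W per m2, cutoff at 307 nm), 5 min of UV-A light (7 W per m2, cutoff at 327 nm) and 1 min of red light (50 µmol per m2 and s). Dark controls stayed in darkness, and all groups shared stratification at 8 °C for 48 h, 2 h of light to induce germination and 94 h of dark growth at 22 °C. Whether replicates were grown separately is not stated in the labels, and the p-values below cover only the spread among replicate arrays, which could be technical in part. By those settings the red pulse delivered 3000 µmol of photons per m2 and continuous red light 144000 µmol per m2 in 4 h, 48 times as much, so the length of irradiation and the amount of light cannot be told apart. Whether the 14 members need continuous light was therefore not tested, and a transient change between 45 min and 4 h was not measured.

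Seedlings sense red and far-red light through phytochromes, blue and UV-A light through cryptochromes and phototropins, and UV-B light through UVR8. A brief red pulse converts phytochrome to its active form, and many genes respond to that pulse alone with a low-fluence response. Other responses, the high-irradiance responses, need prolonged light. The best known of these acts through phytochrome A under continuous far-red light, and cryptochromes likewise act in continuous blue light. In dark-grown seedlings these pathways slow the growth of the hypocotyl, open the cotyledons and start the assembly of chloroplasts.

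Replicate arrays correlated at Pearson's r of 0.974 to 0.989 over all probe sets (median 0.985), and arrays of different groups at 0.932 to 0.991 (median 0.972). Trimmed mean signals were alike, at 99.99 to 100.5. The 40th percentile of an array's signals lay between 24.3 and 30.1, and signals below it are uncertain, since no detection calls were used. All 5 of 5 markers of cotyledon plastids had a named probe set, with signals from 351.4 to 2184.1 for RCA, the activase of Rubisco. The root hair expansin EXPA7 (2.7 to 25) and the guard cell regulator FAMA (13.5 to 34.2) were low on all 48 arrays; each was the only marker with a named probe set among 6 root and 5 guard cell markers. Of 9 seed and 3 phloem markers 0 had a named probe set.

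Of the 14 members, 5 are assigned to a single gene, and 9 are not listed with a gene in the annotation used and are given by their probe set names. Of the 5 genes, AT1G60590 (probe set 264931_at) is of the pectin lyase-like family whose enzymes cut cell wall pectin. GH9B8 (AT2G32990, 267595_at) is a glycosyl hydrolase of the family of endo-glucanases that act on cell wall glucans. CYP84A4 (AT5G04330, 245710_at) is a cytochrome P450 of a pathway that leads from phenylpropanoid precursors to pyrones. AT4G09500 (255032_at) is of the UDP-glycosyltransferase family that links sugars to small molecules. AT1G15290 (262577_at) is of the tetratricopeptide repeat family of protein-binding repeats. The name of 267256_s_at marks probes that several transcripts share, so its signal can be the sum of more than 1 gene. In bulk samples a larger share of cells of a type and more RNA per cell cannot be told apart.

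The values of D at 45 min and, for all treatments but UV-A/B, at 4 h were used to choose the members and are a description, without a test. Over the members, D at 4 h ran from 0.83 to 2.96 in far-red light (median 1.64), from 0.93 to 2.32 in blue (1.55), from 0.88 to 1.99 in white (1.32) and from 0.88 to 1.48 in red light (1.12). After the pulses it ran from 0.02 to 0.39 with UV-A (median 0.30) and from 0 to 0.39 with red light (0.30). Over the 11838 probe sets that reached the mean signal, these medians were -0.002 and -0.008. A D under 0.4 therefore does not show a lack of response to the pulses. At 45 min the medians of the 7 treatments lay between -0.05 and 0.10, with -0.46 (255433_at after the red pulse) and 0.48 (AT4G09500 in blue light) as the extremes. The limit at 45 min does not show a lack of change: AT4G09500 had 31.3, 28.4 and 25.1 in blue light, against 12.1, 17 and 18 in darkness. These dark signals lie under the 40th percentile and are uncertain. Signals of 253088_at (0.4 to 8.5) and AT1G60590 (1 to 21.5) at 45 min lie under the 40th percentile, so their D says little there. Most 45 min signals of 247218_at (2.7 to 26.8, median 11.3), 266124_at (8.6 to 24.5, median 16.55) and AT4G09500 (8.3 to 31.3, median 19.25) lie under it too. Those of AT1G15290 (4.7 to 38.2, median 24.8) lie around it. For these members D at 45 min is uncertain as well. In 13 of the 14 members all 12 arrays of continuous light at 4 h lay above all 9 arrays of the UV-A pulse, the red pulse and darkness, as in 2.67% of the 15777 probe sets tested. AT4G09500 was the exception. Just inside the limits stood 255433_at (D of 0.394 after the red pulse), 258621_at (0.391 after UV-A) and CYP84A4 (0.389 after UV-A). Just outside stood 262414_at (0.401 after UV-A), AT5G21100 (0.796 in white light) and 245726_at (0.791 in blue light).

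**Figure D1:**
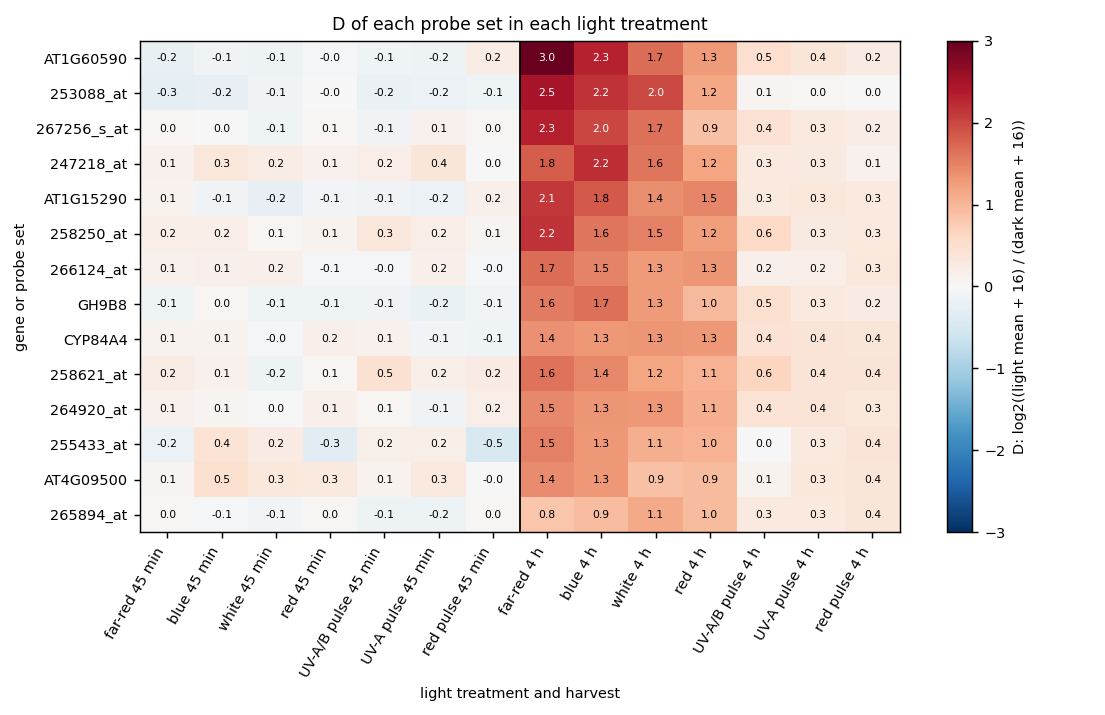
D of each of the 14 members (rows, ordered by mean D in continuous light at 4 h) in the 7 light treatments at 45 min (left) and 4 h (right), as the log2 of light over dark mean signal, each plus 16. The 45 min columns and the 3 pulse columns at 4 h are pale, and the 4 columns of continuous light run up to 2.96 in AT1G60590 under far-red light; the rule fixed this contrast, except for the UV-A/B columns at 4 h.

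Of the 2 genes of cell wall enzymes, AT1G60590 had the highest mean D of all members (2.06). Its signals at 4 h were 115.8, 124.8 and 152.9 on the far-red arrays, 94.8, 75.7 and 64.3 in blue light, 48.6, 36.6 and 48.4 in white and 34.6, 30.1 and 24 in red light. They were 10.5, 15.6 and 6.7 after the UV-A/B pulse, 4.6, 10.5 and 9.8 after the UV-A pulse, 9.4, 6.2 and 3.3 after the red pulse, and 4.3, 2.3 and 2.1 in darkness. The 4 continuous lights form a staircase in which arrays of neighbouring steps do not overlap, with far-red at the top and red at the bottom. Dark and pulse signals lie below the 40th percentile of the arrays, so the size of its rise over darkness is uncertain and no fold is given.

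GH9B8 was measured well above that level on every array. It had signals of 427.9, 518.4 and 353.5 in far-red, 530.9, 420.5 and 444.3 in blue light, 374.7, 416.2 and 275.4 in white and 280.6, 248.9 and 314.5 in red light at 4 h. After pulses it had 205.7, 191.0 and 194.2 (UV-A/B), 161.0, 161.3 and 190.6 (UV-A) and 165.1, 147.2 and 176.9 (red), against 137.6, 155.8 and 115.1 in darkness. Blue and far-red arrays overlap at the top, and the lowest white array lies among the red arrays. Group means were 3.42-fold the dark mean in blue and 3.18-fold in far-red light, but 2.07-fold in red light. At 45 min all 24 arrays of this gene were between 104.1 and 158.5.

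CYP84A4 had mean signals of 165.8 to 176.3 in the 4 continuous lights, a range smaller than the SD of its far-red or red arrays. It gave 157.8, 171.2 and 199.9 in far-red, 150.8, 174.7 and 172.8 in blue light, 177.1, 163.5 and 170.2 in white and 142.5, 163.8 and 191.0 in red light. After the UV-A/B pulse it gave 74.8, 70.9 and 106.9, after the UV-A pulse 61.0, 81.9 and 100.5, after the red pulse 77.9, 75.0 and 83.5, and in darkness 51.5, 58.1 and 64.9. The arrays of the 4 continuous lights overlap fully, at 2.85-fold to 3.03-fold the dark mean, and all lie above the pulses.

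AT4G09500, the other enzyme of small molecules, is dimmer. Its signals were 77.5, 59.0 and 69.9 in far-red, 65.4, 57.8 and 65.3 in blue light, 51.9, 27.3 and 49.5 in white and 48.0, 42.1 and 46.1 in red light. They were 19.9, 19.3 and 16.4 after the UV-A/B pulse, 23.7, 16.4 and 31 after the UV-A pulse, 31.3, 23 and 20.8 after the red pulse, and 17.8, 14.9 and 15.1 in darkness. White replicate 2, at 27.3, falls below the highest UV-A and red pulse arrays and makes the only overlap among the 14 members. The dark signals lie under the 40th percentile.

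AT1G15290 gave 152.9, 151.2 and 147.7 in far-red, 130.6, 151.1 and 83.3 in blue light, 79.2, 97.4 and 76.4 in white and 86.7, 118.3 and 68.1 in red light. With UV-A/B it gave 27.5, 49.3 and 16.9, with UV-A 33.6, 40.2 and 24.7, with the red pulse 29.1, 36.8 and 27.6, and in darkness 19.5, 29.3 and 18.6. The far-red arrays lie close together, while replicate 2 was the highest and replicate 3 the lowest in each of the other 7 groups at 4 h.

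**Figure D2:**
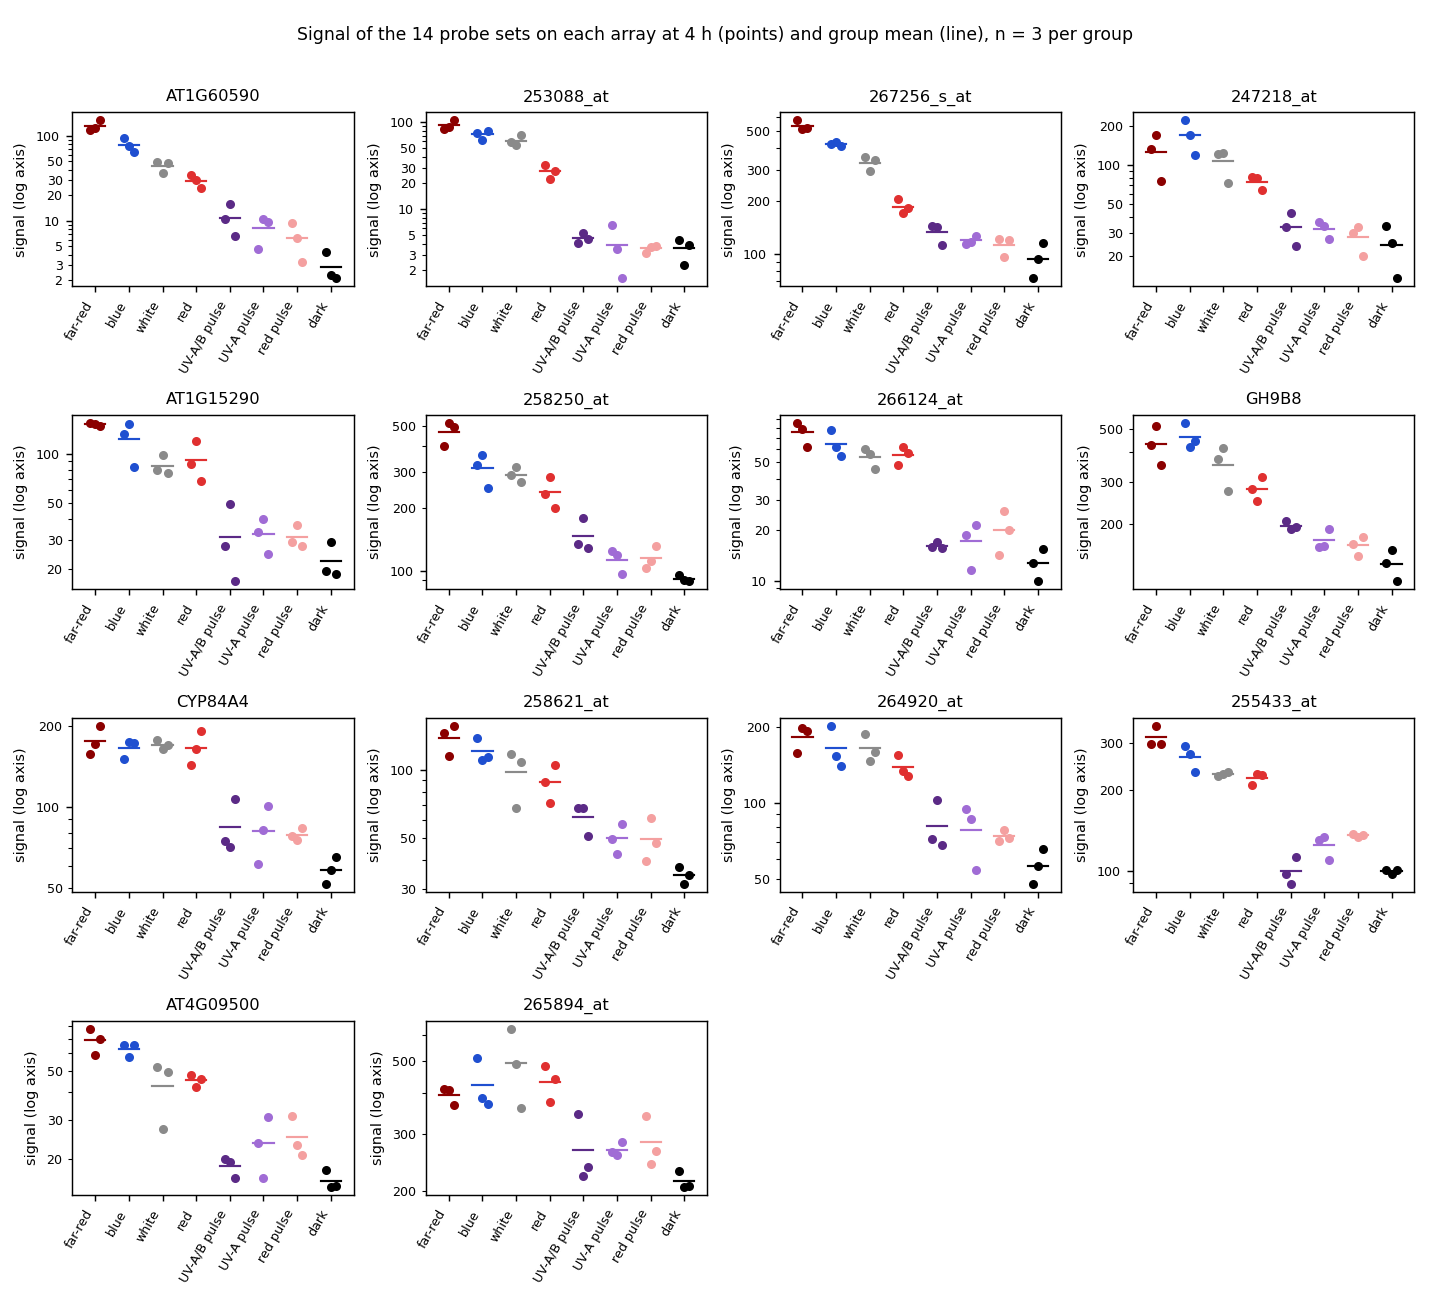
Signal (log axis, a scale of its own in each panel) of the 14 members on each array at 4 h in the 7 light treatments and in darkness; points are arrays and lines are means of 3. Points of the 4 continuous lights sit above the UV-A pulse, red pulse and dark points in all panels but AT4G09500, and the step between far-red and red light differs from the staircase of AT1G60590 to the level row of CYP84A4.

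The 9 members without a listed gene had a mean D of 0.96 to 1.95. Highest of them and second in mean D of all was 253088_at, with signals of 83.3, 88.2 and 105.5 in far-red, 75.3, 62.7 and 79.2 in blue light, 58.7, 55.2 and 70.3 in white and 32.3, 22.5 and 27.4 in red light. Its arrays after the UV-A/B pulse (4.1, 5.3 and 4.5), the UV-A pulse (6.5, 3.5 and 1.6), the red pulse (3.1, 3.7 and 3.8) and in darkness (4.4, 2.3 and 3.9) were all at the bottom of the signal range. No fold over darkness is given for it, and its red arrays lie below those of the other continuous lights without overlap.

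The brighter 267256_s_at had 573.6, 509.3 and 520.7 in far-red, 421.8, 433.0 and 411.7 in blue light, 354.7, 294.3 and 339.9 in white and 205.0, 170.1 and 182.1 in red light. It had 143.8, 142.8 and 112.8 after UV-A/B, 113.8, 117.6 and 126.6 after UV-A, 121.0, 96.5 and 120.6 after the red pulse, and 72.7, 93.2 and 115.5 in darkness. Here the 4 lights again form steps without overlap, from 5.70-fold the dark mean in far-red to 1.98-fold in red light. Signals of 258250_at were 400.1, 515.1 and 491.1 in far-red, 324.4, 362.1 and 251.5 in blue light, 288.2, 315.8 and 268.4 in white and 234.3, 283.9 and 200.9 in red light. The same probe set had 134.7, 180.7 and 128.3 after UV-A/B, 124.1, 118.9 and 96.5 after UV-A, 103.1, 111.5 and 131.7 after the red pulse, and 95.1, 90.8 and 89.1 in darkness. Its far-red arrays stand apart from the rest, and its UV-A/B arrays all lie above darkness.

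In 247218_at blue light gave the highest signals, 222.3, 170.1 and 119.8, with 132.3, 169.5 and 75.9 in far-red, 123.0, 124.9 and 73.5 in white and 80.8, 79.5 and 64.3 in red light. UV-A/B gave 33.5, 43.1 and 24, UV-A 36.8, 34 and 27.1, the red pulse 30.3, 33.3 and 20.2, and darkness 34, 25.2 and 13.5. Replicate 3 was the lowest of its group in all 8 groups, and the spread within groups was wide, with an SD of 42.4% of the mean in darkness. For 266124_at the values were 85.3, 78.3 and 61.6 in far-red, 77.1, 61.7 and 54.2 in blue light, 60.3, 55.9 and 45.9 in white and 48.2, 61.6 and 56.8 in red light. Pulses gave it 15.9, 16.8 and 15.6 (UV-A/B), 18.5, 11.5 and 21.2 (UV-A) and 14.1, 25.7 and 19.8 (red), against 12.7, 9.9 and 15.4 in darkness. White and red light overlap in it, and its dark signals lie under the 40th percentile.

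The next 3 members had a mean D of 1.24 to 1.32. Far-red light gave 258621_at 144.3, 115.4 and 155.7, blue 138.0, 110.1 and 114.1, white 117.3, 68.0 and 107.8 and red light 88.6, 71.7 and 104.8. UV-A/B gave it 67.8, 67.8 and 50.9, UV-A 49.6, 42.6 and 57.7, the red pulse 39.7, 61.3 and 47.7, and darkness 37.2, 31.4 and 34.3. Every pulse array of this member lies above every dark array. Far-red light gave 264920_at 156.7, 198.1 and 192.1, blue 201.1, 152.9 and 140.0, white 187.1, 146.1 and 158.3 and red light 154.6, 132.9 and 127.3. UV-A/B gave it 71.8, 102.7 and 68.3, UV-A 94.1, 86.2 and 54.0, the red pulse 70.8, 78.1 and 72.5, and darkness 47.6, 56.3 and 65.4. Its continuous lights overlap, except that all far-red arrays lie above all red ones. Far-red light gave 255433_at 298.8, 348.4 and 299.3, blue 292.3, 273.6 and 235.2, white 227.1, 231.0 and 233.6 and red light 208.7, 229.8 and 228.4. UV-A/B gave it 97.5, 89.0 and 112.6, UV-A 130.1, 133.7 and 109.7, the red pulse 137.7, 133.7 and 135.8, and darkness 100.4, 97.1 and 100.9. In this member the UV-A/B pulse arrays lie at the dark level, and the red and UV-A pulse arrays lie above it.

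The lowest mean D (0.96) belonged to 265894_at, the only member in which far-red light gave the lowest mean of the 4 continuous lights. Its signals were 409.9, 407.6 and 368.4 in far-red, 512.0, 386.1 and 370.5 in blue light, 627.8, 490.1 and 360.7 in white and 484.9, 374.4 and 440.5 in red light. It had 345.4, 222.7 and 237.6 after UV-A/B, 263.7, 257.7 and 283.3 after UV-A, 339.0, 242.3 and 265.7 after the red pulse, and 230.9, 206.1 and 208 in darkness. The 4 continuous lights overlap in full.

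Far-red light gave the highest mean of the 4 continuous lights in 11 of the 14 members (78.6%), blue light in GH9B8 and 247218_at, and white light in 265894_at. The corresponding share was 24.7% of all 15777 probe sets tested. Red light gave the lowest mean in 10 members (71.4%, against 28.1% of all), white light in AT4G09500, AT1G15290 and 266124_at, and far-red light in 265894_at. The full order far-red, blue, white, red held in 7 members (50.0%, against 9.74% of all). A set of 80 late probe sets, described below, had a D of at least 0.8 after both the red and UV-A pulse. Their shares were 36.2% with far-red highest, 42.5% with red lowest and 21.2% with the full order. These shares are counts over probe sets on the same 12 arrays, from signals that the rule used, and carry no test. In 26 other probe sets that met the limits at 4 h but not the early limit, the median D fell in the same order. It was 1.72 in far-red, 1.47 in blue, 1.35 in white and 1.07 in red light. The order is therefore not shown to be particular to the members.

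**Figure D3:**
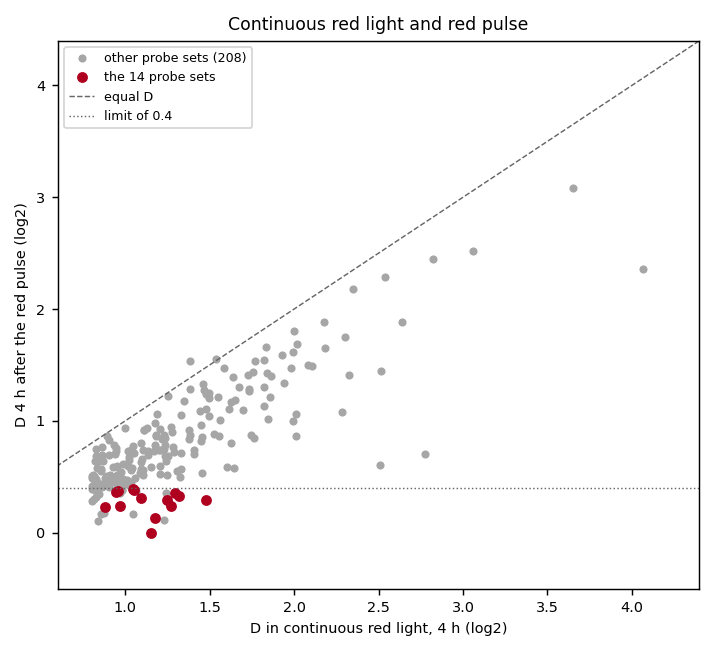
D in continuous red light at 4 h (x axis) against D 4 h after the red pulse (y axis), both log2, for the 222 probe sets up in the 4 continuous lights without early change; the dashed line marks equal D and the dotted line the limit of 0.4. The 14 members lie under the dotted line by the rule, with D in red light of 0.88 to 1.48, and most of the other 208 lie between the dotted and the dashed line.

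The 4 continuous lights were compared with each other in 6 pairs. The rule asked for a D of at least 0.8 in each light and not for a difference between them, but its minimum of 50 bears on members that are dim in a light. Mean signals of 253088_at and AT1G60590 in red light were 27.4 and 29.6, and AT4G09500 had 45.4 there; in white light AT1G60590 had 44.5 and AT4G09500 had 42.9. These members reached 50 only in other lights, which favours a difference, so their values in such pairs are a description without a p, and the tests read are those of members with a mean of at least 50 in both groups, a limit set after the data were seen. The members were also chosen for a weak response to the red pulse, and a low level in red light relative to other lights is not independent of that choice. Log2(signal + 16) of 15777 probe sets was fitted with limma, and a call is a Benjamini-Hochberg adjusted p under 0.05 over all of them. The scale understates changes of low signals. All 14 members passed the filter on low signals, and pairs that name the same light share its 3 arrays.

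In far-red against red light, 5 of the 11 members with a mean of at least 50 in both groups were higher and 0 lower. Among all probe sets with such means 5.02% were called higher, and 7.62% of all tested were called (4.17% higher). Of these 5 the largest differences were those of 267256_s_at, 1.45 ± 0.15 (log2, SE; limma adjusted p = 2.85e-09), and 258250_at, 0.93 ± 0.18 (adjusted p = 0.000250). GH9B8 followed with a mean signal of 433.3 ± 82.6 in far-red and 281.3 ± 32.8 in red light (SD, n = 3 each), a limma difference of 0.59 with an adjusted p of 0.00222. The other 2 called members were 258621_at (0.57) and 255433_at (0.47). Signals of these 5 do not overlap between the groups, but nor do those of AT1G15290 and 264920_at, which were not called. The share of all probe sets without such overlap was not computed. The 6 members not called ranged from -0.12 (265894_at) to 0.66 (AT1G15290), and for CYP84A4 the 95% interval of the difference was -0.16 to 0.33. The median of the 11 was 0.57 and that of all probe sets with such means -0.03. As a description, the difference was 1.69 in AT1G60590, 1.32 in 253088_at and 0.46 in AT4G09500. Leaving out single arrays ended the calls of GH9B8 without far-red replicate 2 (adjusted p = 0.0518), of 255433_at without each of the 6 arrays (0.0570 to 0.180), and of 258621_at without far-red replicate 1 or 3 or red replicate 1 or 2 (0.0555 to 0.161). 255433_at also lost its call with a pseudocount of 1 (0.50, limma adjusted p = 0.0526) and without the filter (0.0515), and AT1G15290 was called without red replicate 2 (0.0331).

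In blue against red light, 3 of the same 11 members were higher and 0 lower. Among all probe sets with a mean of at least 50 in both groups 2.98% were called higher, and 4.44% of all tested were called (2.50% higher). The 3 were 267256_s_at (1.12 ± 0.15), 247218_at (1.01 ± 0.26, limma adjusted p = 0.0167) and GH9B8 (0.69 ± 0.13). Mean signals of 247218_at were 170.7 ± 51.3 in blue and 74.9 ± 9.2 in red light (SD, n = 3 each). The median of the 11 was 0.36, against -0.01 over all probe sets with such means. As a description, the difference was 1.04 in AT1G60590, 1.03 in 253088_at and 0.36 in AT4G09500. With a pseudocount of 1 the first 2 of these were 1.37 and 1.38. The call of 247218_at was lost with that pseudocount (1.14, limma adjusted p = 0.313), and without blue replicate 1 (0.159), blue replicate 2 (0.0551) or red replicate 3 (0.0953).

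In white against red light, 267256_s_at was higher (0.78 ± 0.15, limma adjusted p = 0.00405), 1 of the 11 members, and 0 were lower. Among all probe sets with a mean of at least 50 in both groups 0.625% were called higher, and 0.640% of all tested were called (0.501% higher). The median of the 11 was 0.15, against -0.001 over all probe sets with such means. As a description, 253088_at differed by 0.84, and by 1.14 with a pseudocount of 1. White light gave AT1G60590 a mean signal of 44.5 ± 6.9, against 29.6 ± 5.3 in red light (SD, n = 3 each), a difference of 0.41.

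**Figure D4:**
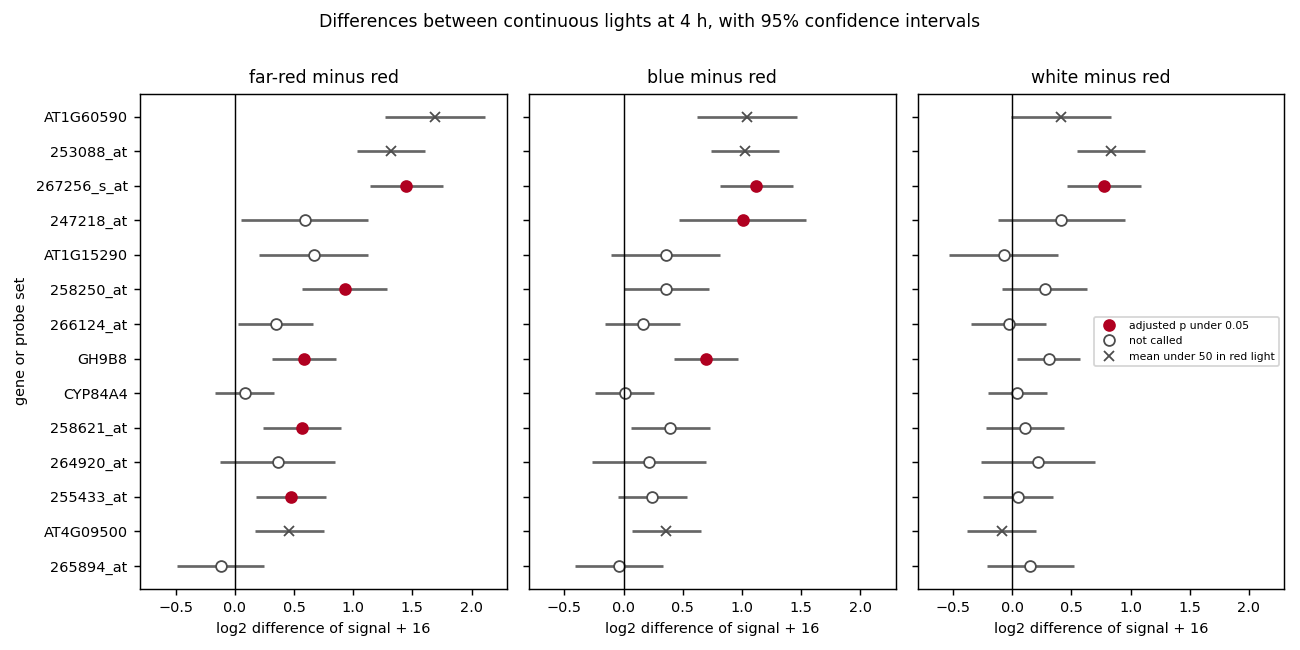
Difference in log2(signal + 16) at 4 h between far-red, blue or white light and red light for the 14 members (rows); points are limma estimates, bars 95% confidence intervals, filled points have an adjusted p under 0.05, and crosses mark the 3 members with a mean under 50 in red light, shown without a call. Far-red minus red is filled in 5 rows, blue minus red in 3 and white minus red in 1, and the widest difference is the 1.69 of AT1G60590 under far-red light.

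In white against far-red light, 3 of the 12 members with a mean of at least 50 in both groups were lower and 0 higher. Among all probe sets with such means 2.04% were called lower, and 3.12% of all tested were called (1.67% lower). On the log2 scale 267256_s_at fell by 0.67 (limma adjusted p = 0.00511), 258250_at by 0.65 (0.0266) and 253088_at by 0.48 (0.0498). The median of the 12 was -0.40, against 0.02 over all probe sets with such means. As a description, the difference was -1.28 in AT1G60590 and -0.55 in AT4G09500. With a pseudocount of 1 these differences were -1.54 and -0.71. In this pair deviations of same-numbered arrays correlated at 0.116 to 0.239. With the replicate number as a block, AT1G15290 was lower too (-0.74, limma adjusted p = 0.00239, against 0.0716 without the block). None of the 3 calls held without each array in turn: 253088_at lost its call without each but white replicate 3 (adjusted p of 0.0611 to 0.318), 258250_at without white replicate 1 or 3 or far-red replicate 2 or 3 (0.0855 to 0.152) and 267256_s_at without white replicate 2 (0.0580). With a pseudocount of 1, 258250_at (-0.68, limma adjusted p = 0.0543) and 253088_at (-0.58, 0.871) were not called, and with only the 2 groups in the fit 253088_at was not (0.0515).

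Between blue and far-red light limma called 0 of 14 members and 0.336% of all probe sets. An unadjusted p under 0.05 was found for 4 members (28.6%, against 5.39% of all probe sets). The median difference was -0.18. Here deviations of same-numbered arrays correlated at 0.172 to 0.244. With the replicate block, 258250_at was called lower in blue light (-0.57, limma adjusted p = 0.0461, against 0.311 without the block). Its mean signal was 312.7 ± 56.2 in blue and 468.8 ± 60.7 in far-red light (SD, n = 3 each). Between white and blue light limma also called 0 of 14, and 0.463% of all. An unadjusted p under 0.05 was found for 5 members (35.7%, against 6.49% of all probe sets). Among these 5, AT1G60590 and AT4G09500 average under 50 in white light and are not read as tests. The median of the 12 members with a mean of at least 50 in both groups was -0.19. A p above the threshold does not show equal signals: the interval for GH9B8 in white against blue light was -0.66 to -0.12. Over the 6 pairs, CYP84A4, AT1G15290, 264920_at, 265894_at and 266124_at were called in 0 without the block.

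The UV-A/B pulse is the light treatment at 4 h that the rule left aside, though its comparison uses the dark arrays on which the members were chosen. Dark arrays that are low by chance favour membership and raise this difference, while the limits after the other pulses favour a small one. Neither its direction nor its size is independent of the choice of members. Of the 14 members 5 were higher 4 h after the UV-A/B pulse than in darkness and 0 lower, where 22.9% of all probe sets were called (11.3% higher). 258621_at averaged 62.2 ± 9.8 after the pulse and 34.3 ± 2.9 in darkness (SD, n = 3 each), a limma difference of 0.63 ± 0.16 (SE; adjusted p = 0.00360). The others were 258250_at, at 147.9 ± 28.6 against 91.7 ± 3.1 in darkness (0.59, adjusted p = 0.0120), GH9B8, at 197.0 ± 7.7 against 136.2 ± 20.4 (0.49, adjusted p = 0.00520), 267256_s_at (0.45, adjusted p = 0.0281) and CYP84A4 (0.42, adjusted p = 0.00992). Each of these differences is smaller than the smallest D of the members in continuous light. The rule set a floor of 0.8 for that D, so nothing is read from this. The 9 members not called ranged from -0.002 (255433_at, 95% interval -0.30 to 0.29) to 0.50 (AT1G60590, adjusted p = 0.0824). The members' median was 0.36 and that of all probe sets -0.005. For a view within late genes, 80 probe sets were taken, after the data were seen, that met the rule for 45 min and continuous light but had a D of at least 0.8 after both the red and the UV-A pulse. After the UV-A/B pulse their median was 1.16, with 77 of the 80 higher; both sets were divided by their response to the other pulses against the same dark arrays, so that nothing is read from this difference between them.

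Of these 5 calls, only that of 258621_at held without each of the 6 arrays in turn. CYP84A4 lost its call without dark replicate 1 (limma adjusted p = 0.0667) or UV-A/B replicate 3 (0.141), GH9B8 without dark replicate 3 (0.0582), 258250_at without UV-A/B replicate 2 (0.107) and 267256_s_at without dark replicate 1 or 2 or UV-A/B replicate 1 or 2 (0.0607 to 0.215). With only the 2 groups in the fit CYP84A4 (0.0792) and 267256_s_at (0.0749) were not called. Dark replicate 1 is also the array whose label names green germination light where the others name red, and whether this bears on its values was not tested.

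**Figure D5:**
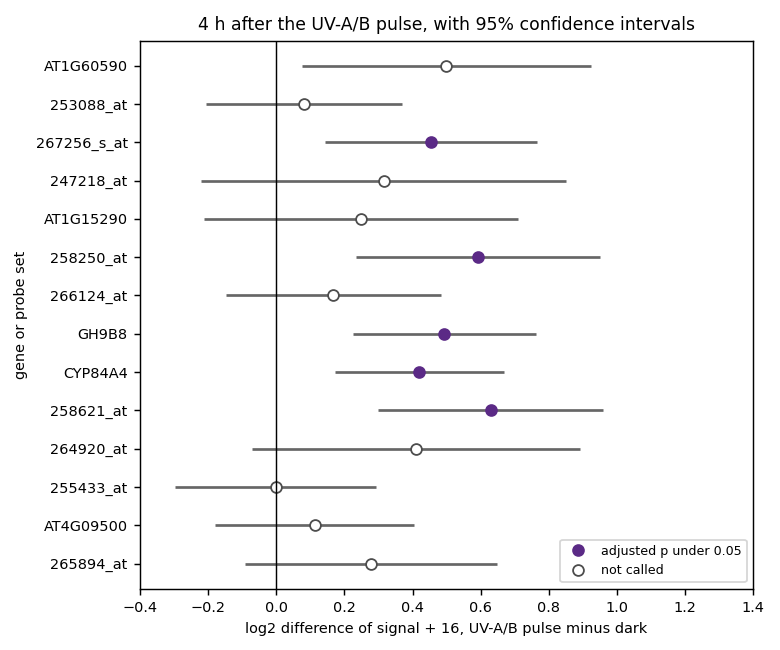
Difference in log2(signal + 16) between seedlings 4 h after the UV-A/B pulse and dark seedlings for the 14 members (rows); points are limma estimates, bars 95% confidence intervals, and filled points have an adjusted p under 0.05. The 5 filled points lie between 0.42 and 0.63, and 13 of 14 points lie above 0.

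Between the harvests in darkness, 4 h against 45 min, limma called 0 of 14 members and 0.0190% of all probe sets. An unadjusted p under 0.05 was found for 3 members (21.4%, against 9.05% of all probe sets). Both dark groups are the base of D in the rule. This comparison is therefore not independent of the choice of members and does not show a lack of drift. The widest differences were those of 247218_at (0.73, adjusted p = 0.392), 255433_at (-0.47, adjusted p = 0.271) and AT1G60590 (-0.43, adjusted p = 0.551). Mean signals of 255433_at were 99.5 ± 2.1 in darkness at 4 h and 146.7 ± 37 at 45 min (SD, n = 3 each), and its D at 4 h refers to the lower of these dark levels.

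The members were set beside 12 lists of genes for photosynthesis, pigments, plastid metabolism and related pathways, in which 44 genes were tested and 0 are members. The 9 members without a listed gene could match no list, so this 0 says little about what the members encode. Coverage was also partial: 7 genes were tested for 37 photosystem and electron transport symbols, and 0 for 44 symbols of plastid gene expression and import. Of the 44 genes, 17 had a D of at least 0.8 in the 4 continuous lights, and 1 of these 17 stayed under 0.4 after the red and UV-A pulses. That gene is HYH, a bZIP factor related to HY5, and it missed membership by its change at 45 min. Of 7 photosystem and electron transport genes 6 were up in the 4 lights, and 0 of these were under 0.4 after the pulses. In far-red against red light 8 of the 44 were higher and 1 lower, led by CHIL (2.70 ± 0.21, limma adjusted p = 2.18e-12), UGT78D2 (2.36 ± 0.13) and HYH (1.95 ± 0.18). CHIL and UGT78D2 belong to the flavonoid list, of whose 6 tested genes 5 were higher. After the UV-A/B pulse 21 of the 44 were higher than in darkness and 0 lower, led by UGT84A1 (3.02 ± 0.15), CHIL (2.65 ± 0.21) and UGT78D2 (2.58 ± 0.13). The highest member value in the same comparison was the 0.63 of 258621_at. The members had to be under 0.4 after the other pulses against the same dark arrays, and the list genes did not. Nothing is therefore read from this difference.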

How the data were processed

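The authors deposited linear ATH1 intensity values; per the submitters' processing notes, MAS5 made them (its version is not given in the sources used here). They were used without further scaling. The 16 group means of log2(intensity + 16) were fitted over all 48 arrays with limma 3.58.1 in R 4.3.3 (lmFit, eBayes with an intensity trend; 32 residual and on average 6.52 prior degrees of freedom), on 15777 probe sets that exceeded the 40th percentile of signals on 3 arrays or more. Precision is limited by the number of arrays. Tests are two-sided, with Benjamini-Hochberg adjustment within each of 8 contrasts. Light against dark contrasts that the rule used were not tested, and between lights only members with a mean of at least 50 in both groups are read as tests. Other software was data.table (version 1.17.8), pandas 2.3.3, numpy 2.4.6 and Python 3.11.15, with matplotlib 3.10.9 for figures. The fit was tested on simulated data.

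The members, lists and tests were chosen with earlier results of these data known. All members are described; in each contrast the text names at least the 4 called members with the largest change each way, and of the lists the 3 genes with the largest change in the 2 contrasts it describes. Names come from the platform annotation, through a RefSeq table by locus; 13513 of 22746 probe sets have 1 gene, 503 have several, and the others are not listed. Promoter motifs were not analysed here.

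Replicate numbers from the labels were checked as pairs: deviations of same-numbered arrays correlated above 0.1 in every pair in 6 of the 8 contrasts (0.115 to 0.350), but not in far-red against red (lowest 0.0782) or dark 4 h against dark 45 min (lowest 0.0758). Differently numbered arrays were not compared, so the check does not establish pairing. The block is a replicate effect shared by all 16 groups. Some labels disagree: replicate 2 of UV-A/B at 45 min has darkness in its description, and dark 4 h replicate 1 names green germination light. For 1 array, replicate 2 of far-red light at 45 min, a number 1 stands ahead of replicate 2 in the title, and 2 was kept; it enters no contrast tested here but shares in the fit's spread and block. In 5 of 6 UV-A/B labels the protocol leaves the light unnamed, and the title was used. Alternatives were a pseudocount of 1, no filter, quantile normalization, the replicate block, only the 2 groups compared, leaving out the 2 arrays above, each array left out in turn and, added after the data were seen, only members with a mean of at least 50 in both groups.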

Additional observations from a re-analysis of the deposited data

How the results depend on the processing

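Unless said otherwise, counts of calls here run over all 14 members. They include 253088_at, AT1G60590 and AT4G09500 in pairs of lights where these average under 50. Such values are a description, so these are not counts of the tests read above. Shares of all probe sets under these settings are not given. With a pseudocount of 1, members called numbered 5 (in place of 8) in far-red against red, 2 (5) in blue against red, 1 (2) in white against red and 1 (5) in white against far-red, and 4 of the 14 members still met the rule. The 11 differences whose calls were lost were larger in size there (253088_at in far-red against red 1.72, in place of 1.32), with limma adjusted p of 0.0526 to 0.871. The cause was not tested. Over members with a mean of at least 50 in both groups, a limit added after the data were seen, calls numbered 5 in far-red against red, 3 in blue against red, 1 in white against red and 3 in white against far-red. For the UV-A/B pulse against dark, 3 members (in place of 5) were called both with only the 2 groups in the fit and without the 2 arrays whose labels disagree. Still meeting the rule were 7 members with group medians and 8 without those 2 arrays. The replicate block gave 1 call in place of 0 in blue against far-red and 6 in place of 5 in white against far-red. It changed no other call in the 6 contrasts where all same-numbered arrays correlated above 0.1. In far-red against red, where not all did, it gave 9 in place of 8, adding AT1G15290 (limma adjusted p = 0.00325). Leaving out each array in turn gave 3 to 4 called members for the UV-A/B pulse, 5 to 6 in far-red against red, 4 to 5 in blue against red, 2 to 2 in white against red, 2 to 4 in white against far-red, and 0 to 0 in the other 3 contrasts. Under the same omissions the rule found 10 to 20 probe sets, among them 8 to 14 of the members: the 8 without dark 4 h replicate 1, and 253088_at, 258250_at and GH9B8 met it in all 24. No call changed direction under these alternatives. Quantile normalization kept all 25 calls of a member in a contrast, and no filter kept 23, with the members under 50 in a group counted. The signals give no detection calls, so levels of members that are dim in darkness, and folds over them, are limited by the background.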

Other observations

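Without the condition on 45 min, the same limits at 4 h were met by 40 probe sets, the 14 members and 26 others beyond the limit at 45 min. Of these 26, 10 are assigned to a single gene, among them HYH, GTR1, a glucosinolate transporter, and AT1G48100, of the polygalacturonase family that cuts pectin. After the red pulse their median D was 0.25 at 4 h and 1.02 at 45 min, and after the UV-A pulse 0.20 at 4 h and 1.43 at 45 min. In continuous light at 4 h their medians were 1.72 in far-red, 1.47 in blue, 1.35 in white and 1.07 in red light. All these values but those at 45 min were used to choose them, and the 26 had to differ at 45 min. AT1G48100 had a D of 3.85 in far-red light at 4 h and 1.09 at 45 min, and 0.32 at 4 h after the red pulse. HYH had 0.37 at 4 h and 1.03 at 45 min after the red pulse, and UV-A/B gave it 2.17 at 4 h. For the UV-A/B pulse at 4 h, D over the 26 ran from -0.21 to 2.17 with a median of 0.57. The limits did not use this treatment, but those after the other pulses used the same dark arrays. The size of this D is therefore not independent of the choice of the 26.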
